A study of Homo sapiens with 12 samples.

Results

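The HOX genes of MRC5 lung fibroblasts were described before and after X-ray senescence, with and without 2 inhibitors of mitochondrial carriers. Members were all rows of the raw count table whose symbol was HOX, a cluster letter from A to D and a number, so antisense genes of the clusters were left out. This gave 39 genes of the 57500 in the table, with 11 in the HOXA cluster on chromosome 7, 10 in HOXB on chromosome 17, 9 in HOXC on chromosome 12 and 9 in HOXD on chromosome 2 (GRCh38). A filter on low counts was passed by 16251 genes, and 20 HOX genes were among them: 9 of HOXA, 7 of HOXB, 4 of HOXC and 0 of HOXD.

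RNA was sequenced from MRC5, a line of human fibroblasts from embryonic lung, in 12 libraries, with 3 in each of 4 groups. Prol cells were proliferating and unirradiated. Sen(IR) cells had received 20 Gy of X-rays, a dose that drives them into senescence, a lasting arrest of the cell cycle. Sen(IR)+UK5099 cells received the same X-rays and then 100 μM UK5099, which blocks the mitochondrial pyruvate carrier, and Sen(IR)+CTPI2 cells received the X-rays and CTPI2, which blocks the mitochondrial citrate carrier SLC25A1. The methods list 15 and 30 μM CTPI2, and which of them was sequenced is not stated. Each inhibitor was added 1 day after irradiation and kept in the medium, and senescent cells were collected 10 to 12 days after irradiation. All groups are the same line, so they stand for 1 source of lung fibroblasts. The study calls its sequenced samples independent conditions and, for CTPI2, independent experiments. Neither it nor the labels say if the libraries of a group came from separate cultures, so the p-values measure the spread between these libraries, which may be technical.

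HOX genes encode homeodomain transcription factors that give cells their position along the axes of the embryo. They sit in 4 clusters, and genes at the same place in different clusters are paralogs that carry the same number. Low numbers lie at the 3′ end of a cluster and are switched on early and towards the head, and high numbers lie at the 5′ end and are switched on late and towards the tail and the limb ends. Fibroblasts taken from adult and fetal tissues keep a HOX pattern that reflects where in the body they came from. Polycomb complexes keep silent HOX genes off, Trithorax-type complexes keep active ones on, and retinoic acid induces the 3′ genes. In the lung, HOXA5 and HOXB5 are mesenchymal regulators of airway and alveolar development.

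The start regions of a member that differed with an inhibitor and of a silent member are shown side by side. RefSeq windows of 250 bases before a transcription start (GRCh38.p14) were matched for 8 of the 20 HOX genes that passed the filter, with 15 windows, and for 12 of those that did not, with 12 windows. HOXA7, whose level was in the lower part of the range of the genes tested, is shown because it differed with UK5099, from chr7:27156755-27156925 on the minus strand. These 171 bases lie inside the longest annotated span of HOXA7 but outside annotated exons, and 79 exonic bases nearer to the start were left out. HOXD4, which had no count in any library, is shown from chr2:176151300-176151549 on the plus strand. The sequences read 5′ to 3′, and capitals mark CG dinucleotides, the sites of DNA methylation.
HOXA7: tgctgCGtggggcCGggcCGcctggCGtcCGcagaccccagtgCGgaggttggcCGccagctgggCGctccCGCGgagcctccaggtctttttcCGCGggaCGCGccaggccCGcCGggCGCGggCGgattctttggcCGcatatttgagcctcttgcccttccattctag
HOXD4: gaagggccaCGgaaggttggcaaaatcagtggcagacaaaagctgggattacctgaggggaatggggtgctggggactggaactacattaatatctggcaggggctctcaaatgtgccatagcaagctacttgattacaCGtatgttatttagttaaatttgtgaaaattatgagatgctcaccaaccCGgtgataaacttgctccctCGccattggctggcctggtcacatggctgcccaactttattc

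The HOXA7 stretch held 20 CG dinucleotides and the HOXD4 stretch held 4. This contrast did not extend to the other members with a window: windows of the 8 HOX genes that passed the filter held 0 to 28 CG dinucleotides (median 19), and windows of the 12 that did not held 4 to 40 (median 21). CCAAT, searched on both strands, was present in 9 of 15 windows of the former and 9 of 12 windows of the latter, against 32% of 35116 RefSeq windows of the same length. TATAAA was present in 4 of 15 and 1 of 12 windows, against 10.7%. The homeodomain letters TAATTA were present in 0 of 15 and 2 of 12 windows (4.35% of all), and the PBX-HOX letters TGATTNAT in 1 of 15 and 1 of 12 (2.48% of all). HOXC4 and HOXC5 share 1 of these windows, and 7 of the 15 windows belong to HOXA3. The 8 genes were HOXA2, HOXA3, HOXA4, HOXA6, HOXA7, HOXA9, HOXA10 and HOXC4. No window was matched for HOXA5 or HOXB2 to HOXB7, the 7 highest HOX genes per kilobase. The windows therefore do not compare highly expressed with silent HOX genes.

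The libraries held 20597736 to 28245693 counts, and levels are given as CPM, counts per 1000000 counts of a library scaled by the TMM factor. A count of 3, taken as the floor of detection, was 0.111 to 0.147 CPM per library, and floors and intervals for counts cover counting error only. All 10 fibroblast markers were detected, with levels that summed to 21360 to 25400 CPM in Prol libraries and 20690 to 21280 CPM in Sen(IR) libraries, to 10910 to 11400 CPM under UK5099 and to 18270 to 20050 CPM under CTPI2. Epithelial markers summed to at most 1.34 CPM in any library, with NKX2-1 at 0 in all 12, while endothelial markers summed to 0.736 to 6.23 CPM and blood cell markers to 0.773 to 2.16 CPM. In bulk RNA, fewer cells of a type and less RNA per cell cannot be told apart.

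The 20 HOX genes spanned 2 tiers when levels were taken as CPM per kilobase of exon and averaged over all 12 libraries, a split made after the values were seen. HOXB7 (15.6), HOXB5 (15.4), HOXA5 (12.1), HOXB2 (11.4), HOXB6 (9.30), HOXB4 (8.27) and HOXB3 (6.90 CPM per kilobase) formed the upper tier, and no library of these 7 genes fell below 5.95 CPM per kilobase. No library of the other 13 genes rose above 2.82 CPM per kilobase. HOXA3 (2.09), HOXC8 (1.80) and HOXA4 (1.52 CPM per kilobase) came next, and HOXA10 (0.123) and HOXA9 (0.104 CPM per kilobase) came last. Within the upper tier, the library ranges of HOXB7 (14.2 to 18.1 CPM per kilobase) and HOXB5 (11.5 to 17.6 CPM per kilobase) overlapped, as did those of HOXA5 (7.32 to 16.2) and HOXB2 (9.36 to 15.3), so neither pair was ordered beyond its spread. Among all genes tested, 84.0% had a lower level per kilobase than HOXB7, whereas only 4.76% were below HOXA9.

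**Figure D1:**
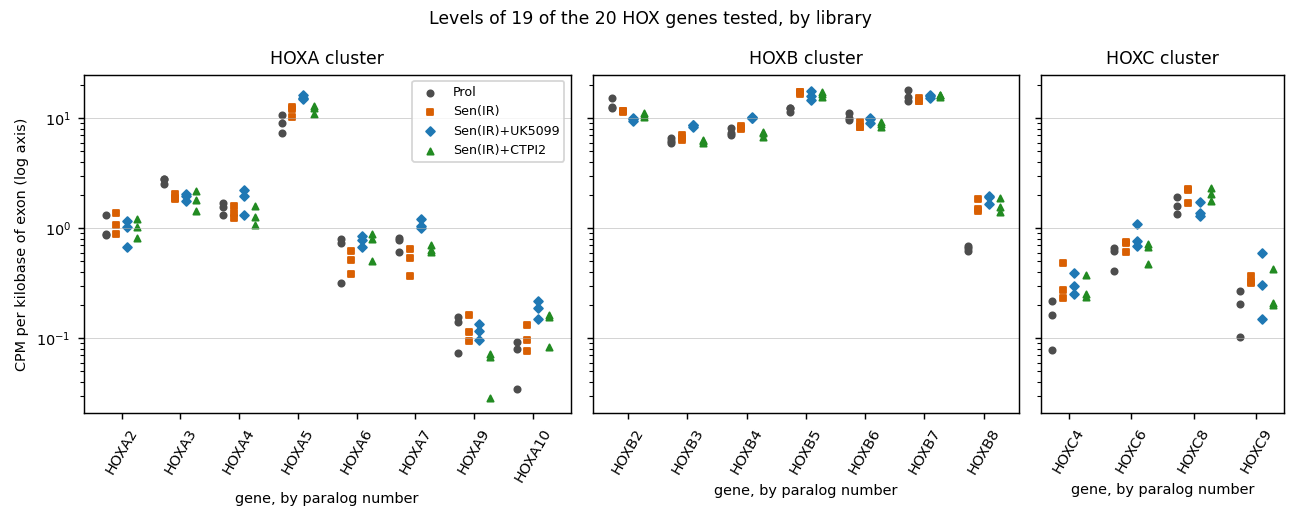
Levels of 19 of the 20 HOX genes tested, in CPM per kilobase of exon on a log axis, with 1 point per library and the 4 groups by colour and marker. HOXB2 to HOXB7 and HOXA5 lie above 5.95 CPM per kilobase in every library, and the other 12 genes shown lie below 2.82 CPM per kilobase.

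The order of the levels depended in part on exon bases that HOX genes share with neighbours. The sources do not say if the libraries kept strand, and reads on shared exon bases cannot be given to 1 gene. HOXA7 shares 62.5% of its exon bases with HOXA-AS3, HOXA4 47.8% and HOXA6 40.1% with antisense and read-through genes, HOXB6 33.0% with HOXB-AS3 and HOXB3, and HOXC4 17.5% with HOXC6 and a read-through gene. Counted per kilobase of unshared exon, HOXB5 was first (16.1 CPM), HOXB7 followed (15.6 CPM) and HOXB6 moved from rank 5 to rank 3 (13.9 CPM). HOXA7 rose from 0.748 to 1.99 CPM per kilobase and HOXA4 from 1.52 to 2.91 CPM per kilobase on this scale. HOXA5, HOXB7, HOXB8 and HOXC8 share no exon base with another gene.

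Most genes that passed the filter came from the 3′ end and the middle of their cluster. Of the 27 HOX genes with numbers 1 to 9, 19 passed the filter, and of the 12 with numbers 10 to 13, HOXA10 alone did. HOXA10, at 3 to 21 counts per library, was also among the lowest 2 of the 20 genes per kilobase. Paralogs did not share a level across clusters. In the group numbered 5, HOXA5 and HOXB5 were both in the upper tier while HOXC5 had at most 6 counts in a library. In the group numbered 9, HOXA9 and HOXC9 passed the filter at 0.104 and 0.289 CPM per kilobase, while HOXB9 had at most 5 counts and HOXD9 at most 2. HOXB13, a marker of the caudal end, had at most 4 counts.

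The HOXB cluster held 76.0 to 80.3% of all HOX CPM in each library, and the HOXA cluster 15.9 to 20.6%. Summed HOXB levels were 170 ± 10.5 CPM in Prol, 175 ± 4.73 in Sen(IR), 191 ± 6.97 with UK5099 and 168 ± 2.54 with CTPI2 (SD, n = 3). Summed HOXC levels were 6.68 ± 0.878, 8.91 ± 0.972, 7.96 ± 0.811 and 8.51 ± 1.15 CPM in the same order. The HOXD cluster was nearly silent, with 0 counts in every Prol library and at most 4 in any other. In it, HOXD1, HOXD3, HOXD4, HOXD11 and HOXD12 had no count in any library, HOXD8 and HOXD13 had at most 3 in a library, and HOXD9 and HOXD10 at most 2 and 1.

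Elsewhere, HOXB1, HOXC11 and HOXC12 also had no count, which makes 8 silent HOX genes at a depth where 3 counts could have been seen as 0.111 to 0.147 CPM. The other 11 HOX genes that did not pass the filter had a count in some library. HOXA11, the highest of them, reached 12 counts and was seen in 11 libraries. HOXA13 and HOXC10 had at most 1 count per library, and HOXC13 at most 2.

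Sen(IR) was compared with Prol to ask which HOX genes differed in senescence. HOXB5, HOXB8 and HOXC4 were higher in Sen(IR), by 1.42 to 2.40 times, and 0 HOX genes were called lower. A gene was called when edgeR's quasi-likelihood test gave a Benjamini-Hochberg adjusted p under 0.05 over all 16251 genes and the absolute log2 fold change exceeded 0.5. By this rule 4 of 20 HOX genes (20%) were called, of which 3 are described, against 47.2% of all genes tested (24.8% higher and 22.4% lower). The HOX share was thus below the background share. Standard errors of the 20 HOX genes ran from 0.0618 to 0.518, and the part of low counts in this share was not tested. The median log2 fold change of the 20 HOX genes was 0.12, against 0.01 over all genes tested, with 13 positive and 7 negative values from −0.52 (HOXA7) to 1.26 (HOXB8).

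HOXB8, a gene also known from myeloid progenitors, was at 1.49, 1.59 and 1.67 CPM in Prol and at 3.56, 4.46 and 3.43 CPM in Sen(IR). The groups did not overlap, and the log2 fold change was 1.26 (SE 0.189, 2.40-fold, edgeR adjusted p 3.67e-06).

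HOXB5, one of the highest HOX genes in these cells, was at 21.3, 23.0 and 22.9 CPM in Prol and at 30.8, 31.9 and 32.6 CPM in Sen(IR). Its groups were well apart and its adjusted p was the smallest after that of HOXB8 (edgeR adjusted p 4.07e-06), but its log2 fold change of 0.50 (SE 0.0759, 1.42-fold) was only just over the limit of 0.5. It fell to 0.47 to 0.50 without Prol library 1, Sen(IR) library 2 or Sen(IR) library 3, and to 0.49 with only these groups in the fit, and was then not called. HOXC4 was at 0.597, 0.215 and 0.446 CPM in Prol and at 1.33, 0.758 and 0.637 CPM in Sen(IR), on 5 to 30 counts per library. Its groups did not overlap, although Sen(IR) library 3 was close to Prol library 1, and the log2 fold change was 1.12 (SE 0.416, edgeR adjusted p 0.0216). Without Prol library 2 the HOXC4 value was 0.82 (edgeR adjusted p 0.100) and without Sen(IR) library 1 it was 0.73 (edgeR adjusted p 0.178).

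Adjusted p alone, with no limit on the fold change, was under 0.05 for 8 HOX genes, against 68.7% of all genes (34.1% higher and 34.5% lower). Besides the 4 called, HOXA5 was higher in Sen(IR) (log2 fold change 0.37, edgeR adjusted p 0.00515), and HOXA3 (−0.49), HOXB6 (−0.25) and HOXB2 (−0.22) were lower. Without Prol library 3 the HOXB2 value was −0.12, with an edgeR adjusted p of 0.142. HOXA3, an anterior gene that patterns the pharyngeal region, was at 10.8, 11.98 and 12.2 CPM in Prol and at 8.85, 7.87 and 8.19 CPM in Sen(IR). It was lower in every Sen(IR) library (edgeR adjusted p 0.00160), just short of the limit, and passed it at −0.54 without Prol library 1 or Sen(IR) library 1. Libraries of Prol and Sen(IR) did not overlap for 8 HOX genes of 20, with HOXC9 among them and HOXA5 not, against 70.9% of all genes (35.3% higher and 35.5% lower).

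The same 3 genes also lay apart from Prol in the irradiated cells kept in an inhibitor. HOXB8 was at 3.34 to 4.67 CPM in the 9 irradiated libraries against 1.49 to 1.67 CPM in Prol. HOXB5 was at 27.2 to 32.7 CPM against 21.3 to 23.0, and HOXC4 at 0.637 to 1.33 against 0.215 to 0.597 CPM. HOXA3 and HOXB2 lay below Prol in all 9 irradiated libraries, with HOXB2 at 23.0 to 28.6 CPM against 30.4 to 37.5. In all, 4 of 20 HOX genes lay above and 2 below, against 26.2% and 28.3% of all genes tested, so neither HOX share was above the background share. Irradiation, senescence and time in culture go together in this design and cannot be told apart.

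**Figure D2:**
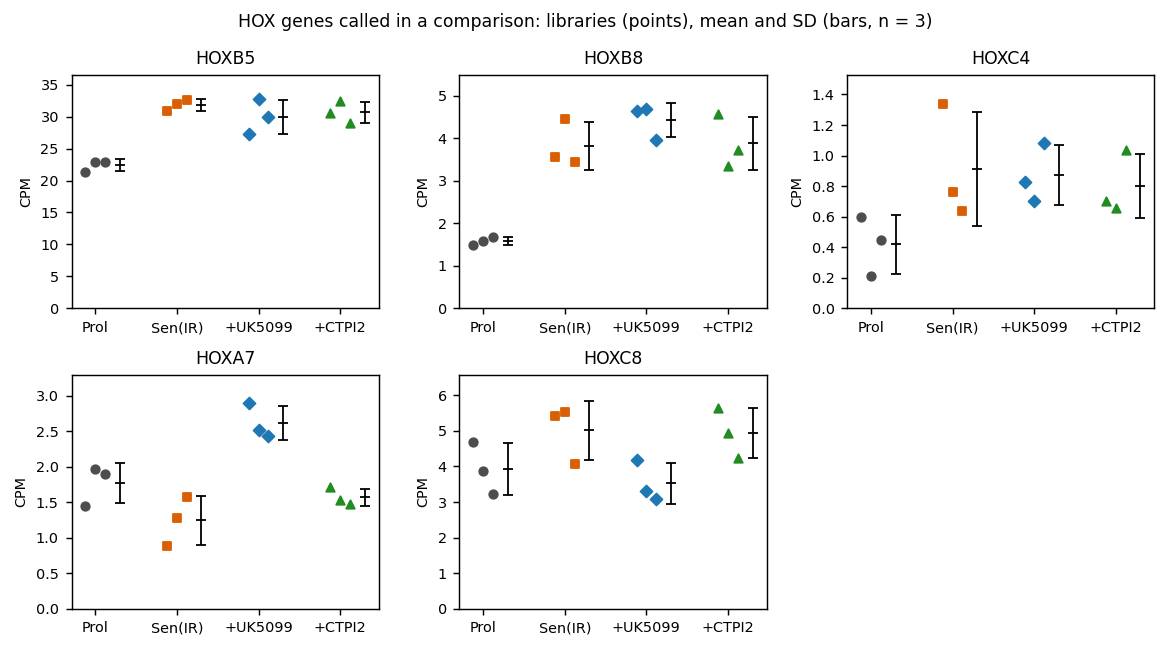
CPM of 5 HOX genes called in at least 1 comparison, with 1 point per library, and the mean and SD (n = 3) as bars, in 4 groups per panel. HOXB5, HOXB8 and HOXC4 lie above Prol in all 9 irradiated libraries, and HOXA7 lies highest in the 3 UK5099 libraries.

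Sen(IR)+UK5099 was compared with Sen(IR) to ask what blocking pyruvate import changed in senescent cells. HOXA7 was 2.11-fold higher with UK5099 and HOXC8 1.43-fold lower. These 2 of 20 HOX genes (10%) compare with 20.8% of all genes tested (8.76% higher and 12.1% lower), so the HOX share was again below the background share. Standard errors of the 20 HOX genes ran from 0.0609 to 0.469, and the part of low counts in this share was not tested. The median log2 fold change of the 20 HOX genes was 0.14, against 0.01 over all genes. By cluster it was 0.38 for the 9 HOXA genes, 0.16 for the 7 HOXB genes and 0.00 for the 4 HOXC genes. The summed fibroblast markers also differed between these groups, at 10910 to 11400 against 20690 to 21280 CPM, with 6 of 10 markers called lower and 0 higher, and their part in the HOX differences was not tested.

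HOXA7, which acts in patterning of the trunk, was at 0.890, 1.28 and 1.57 CPM in Sen(IR) and at 2.90, 2.52 and 2.44 CPM with UK5099. The UK5099 libraries lay above all 9 others, which spanned 0.890 to 1.98 CPM, Prol included. The log2 fold change was 1.08 (SE 0.234, edgeR adjusted p 0.000668), and it stayed called without any 1 of the 6 libraries. Its partner on the opposite strand, HOXA-AS3, which shares 62.5% of the exon bases of HOXA7, had 0.593 ± 0.308 CPM in the Sen(IR) libraries and 0.807 ± 0.413 CPM in those with UK5099 (SD, n = 3). The log2 fold change of HOXA-AS3 was 0.43 (edgeR adjusted p 0.493), and how far its reads entered the HOXA7 count was not tested.

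HOXC8, another trunk gene, was at 5.43, 5.55 and 4.07 CPM in Sen(IR) and at 4.18, 3.30 and 3.10 CPM with UK5099. Its groups overlapped, since Sen(IR) library 3 lay below UK5099 library 1, and the log2 fold change was −0.51 (SE 0.178, edgeR adjusted p 0.0219). HOXC8 lost the call without Sen(IR) library 1 or 2 or UK5099 library 2 or 3, with values from −0.47 to −0.43 and edgeR adjusted p of 0.0688 to 0.0935.

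Adjusted p alone was under 0.05 for 6 HOX genes with UK5099, against 45.4% of all genes (21.9% higher and 23.5% lower). HOXB3 was at 49.2, 52.3 and 46.9 CPM in Sen(IR) and at 61.2, 64.2 and 64.0 CPM with the inhibitor, a log2 fold change of 0.35 (SE 0.0609, edgeR adjusted p 6.06e-05). HOXB4, a gene also known from blood stem cells, was at 16.0, 17.1 and 16.2 CPM and at 20.5, 20.2 and 20.04 CPM with UK5099 (log2 fold change 0.30, edgeR adjusted p 0.00422). HOXA5 was at 17.8, 21.1 and 21.8 CPM and at 26.3, 27.9 and 25.6 CPM with UK5099 (log2 fold change 0.40, edgeR adjusted p 0.00395). In all 3 genes every UK5099 library lay above all 9 others, although none of them reached the fold change limit. With HOXA7 they made 4 of 20 HOX genes, against 15.1% of all genes above the 9 others. HOXB2 went the other way, at 28.2, 28.4 and 28.6 CPM in Sen(IR) and at 23.0, 24.4 and 24.2 CPM with UK5099 (log2 fold change −0.25, edgeR adjusted p 0.0122), below all 9 others as 15.6% of all genes were. Without UK5099 library 1 its edgeR adjusted p was 0.0508. Libraries did not overlap for 7 HOX genes, 6 of them higher with UK5099, against 56.6% of all genes (27.9% higher and 28.6% lower), and HOXA6 and HOXA10 were among the 6.

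The remaining HOX genes had an edgeR adjusted p over 0.05 with UK5099. HOXA10 (0.87, 95% interval −0.02 to 1.75) and HOXA6 (0.59, 95% interval −0.18 to 1.36) had log2 fold changes over 0.5, but with wide intervals. HOXB7, one of the highest HOX genes per kilobase, was at 23.4, 21.6 and 21.7 CPM in Sen(IR) and at 23.2, 24.2 and 25 CPM with UK5099, so the groups overlapped (log2 fold change 0.12, 95% interval −0.05 to 0.29). HOXB5 had a log2 fold change of −0.08 (95% interval −0.24 to 0.07) and HOXA3 of 0.00 (95% interval −0.27 to 0.27). HOXC6 was at 2.54, 2.09 and 2.60 CPM in Sen(IR) and at 2.65, 3.78 and 2.40 CPM with UK5099, led by UK5099 library 2. Its log2 fold change was 0.29 (95% interval −0.17 to 0.76). Intervals of 8 of the 20 HOX genes lay wholly within 0.5 of 0, and those of 15 within 1.

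Sen(IR)+CTPI2 was compared with Sen(IR) to ask what blocking citrate export changed. 0 of 20 HOX genes were called by edgeR's quasi-likelihood test, against 0.166% of all genes tested by edgeR. DESeq2 also called 0 HOX genes, and its share over all genes was not counted. With so small an edgeR share, 0 calls among 20 genes do not set the HOX genes apart. At an unadjusted p under 0.05 edgeR gave 1 HOX gene, HOXB4, against 7.27% of all genes. HOXB4 was at 16.0, 17.1 and 16.2 CPM in Sen(IR) and at 14.8, 14.9 and 13.6 CPM with CTPI2. Every CTPI2 library was the lower, but the log2 fold change of −0.19 did not hold after adjustment (edgeR adjusted p 0.635). Libraries did not overlap for 4 HOX genes (20%), with HOXA9, HOXB2 and HOXB4 lower and HOXB7 higher, against 15.1% of all genes (8.3% lower and 6.79% higher).

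The 95% intervals of 10 HOX genes with CTPI2 lay within 0.5 of 0, and 16 lay within 1. All 7 HOXB genes were among the 10, with log2 fold changes from −0.19 to 0.13. The widest interval was that of HOXA9, whose 3 CTPI2 libraries held 5, 5 and 2 counts against 11, 6 and 7 in Sen(IR) (log2 fold change −1.11, 95% interval −2.23 to 0.02). A change of the size seen for HOXA7 with UK5099 was outside the interval for CTPI2, which ran from −0.18 to 0.86. The median log2 fold change over the 20 HOX genes was −0.07, against 0.00 over all genes.

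**Figure D3:**
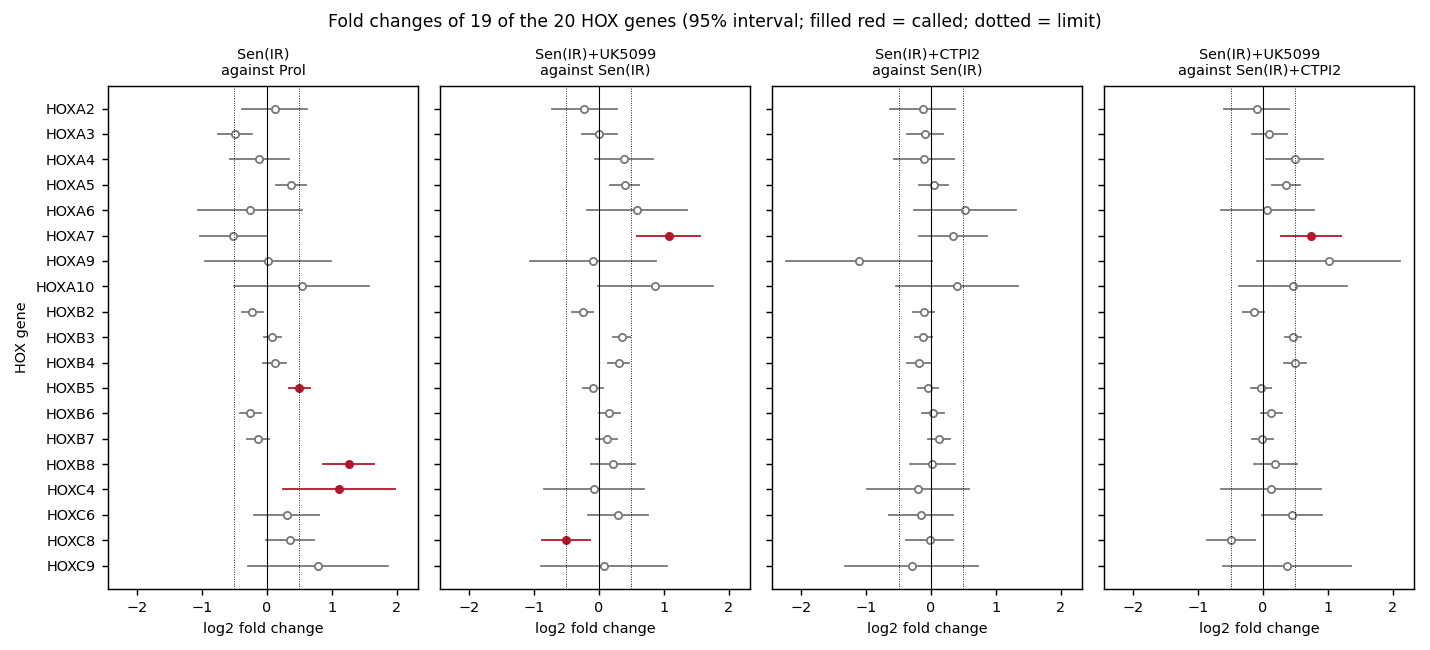
Log2 fold changes of 19 of the 20 HOX genes in the 4 comparisons (x axis) with 95% intervals, where filled red points were called and dotted lines mark the limit of 0.5. Called genes among those shown number 3 in Sen(IR) against Prol, 2 with UK5099, 0 with CTPI2 and 1 between the inhibitors.

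The inhibitors were also set against each other. HOXA7 alone was called, at 1.71, 1.53 and 1.47 CPM with CTPI2 against 2.90, 2.52 and 2.44 CPM with UK5099, with no overlap (log2 fold change 0.74, SE 0.222, edgeR adjusted p 0.00996). This was 1 of 20 HOX genes (5%), against 19.9% of all genes tested (8.2% higher and 11.7% lower). With adjusted p alone there were 5, against 44.5% of all genes (21.1% higher and 23.4% lower), and HOXB4 (0.49), HOXB3 (0.47) and HOXA5 (0.36) were higher and HOXC8 (−0.49) lower with UK5099. HOXB4 passed the limit at 0.51 without CTPI2 library 1 or 2, and HOXC8 passed it without CTPI2 library 3 or UK5099 library 1, at up to −0.63. HOXA4 was called in 2 fits that left out a library. HOXC8 had an edgeR adjusted p of up to 0.128 without CTPI2 library 1 or 2 or UK5099 library 2 or 3, and HOXA5 one of 0.0564 without CTPI2 library 2. Libraries did not overlap for 8 HOX genes, against 53.6% of all genes (26.1% higher and 27.6% lower). Both inhibitors are compared with the same 3 Sen(IR) libraries, and the Sen(IR) libraries are also the ones compared with Prol, so the differences above are not independent of each other.

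Genes that act with or on the HOX genes were described from lists. Their counts are read against all genes tested, of which 47.2% were called in Sen(IR) against Prol, 20.8% with UK5099 and 19.9% between the inhibitors. PBX, MEIS and PKNOX proteins bind DNA together with HOX proteins. In Sen(IR) against Prol, 0 of 9 cofactor genes were called higher and 3 lower, against 24.8% and 22.4% of all genes, with a median log2 fold change of −0.42. PBX3 fell from 31.6 ± 4.13 to 16.3 ± 0.0960 CPM (log2 fold change −0.96), MEIS1 from 62.6 ± 3.30 to 41.0 ± 1.20 CPM (−0.61) and PKNOX2 from 9.03 ± 1.12 to 6.01 ± 1.18 CPM (−0.58, SD, n = 3). PKNOX2 was not called without Prol library 2 or Sen(IR) library 3. With UK5099, 2 cofactors were called higher and 1 lower, and PBX3 was at 29.9 ± 1.13 CPM (log2 fold change 0.88 against Sen(IR)) and PKNOX2 at 3.89 ± 0.329 CPM (−0.63, lost without Sen(IR) library 1). Between the inhibitors, PBX3 (0.99) was called higher and PKNOX2 (−0.62) lower with UK5099.

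Of 22 noncoding RNAs of the HOX clusters in the table, 6 passed the filter. In Sen(IR) against Prol 2 were called higher and 0 lower, against 24.8% and 22.4% of all genes. HOXB-AS3, which shares 3.93% of the exon bases of HOXB5 and part of HOXB6 from the opposite strand, rose from 8.87 ± 0.678 to 16.0 ± 0.970 CPM (log2 fold change 0.85, edgeR adjusted p 5.85e-08). HOXB-AS2 had at most 3 counts in each Prol library, and its Sen(IR) mean of 0.354 CPM was 2.88 times the floor in Prol. That ratio leaves out the spread between the Sen(IR) libraries. The fitted log2 fold change of HOXB-AS2 was 2.065 (SE 0.718, edgeR adjusted p 0.0143), and it lost the call without Prol library 1 or Sen(IR) library 1. HOXB5 and HOXB-AS3 are neighbours that both rose, and HOXB6 beside them had a log2 fold change of −0.25. With UK5099, 0 of the 6 were called, against 20.8% of all genes.

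Polycomb genes had 3 called higher and 13 lower of 30 in Sen(IR) (median log2 fold change −0.37), against 24.8% higher and 22.4% lower of all genes. Their share called in either direction was near the 47.2% of all genes, but most of these calls were lower. EZH2, the methyltransferase of Polycomb repressive complex 2, fell from 67.0 ± 5.96 to 7.57 ± 1.41 CPM (−3.14), CBX2, a reader of its mark, from 4.91 ± 0.772 to 0.579 ± 0.280 CPM (−3.07) and PHF19, a partner of that complex, from 79.1 ± 2.81 to 18.4 ± 0.890 CPM (−2.10). The 3 called higher were EZH1, CBX7 and YAF2, named after their values were seen. CBX7 lost the call without Prol library 1, and YAF2 without Prol library 1 or Sen(IR) library 3. Beside this, the HOXD genes together held 0 counts in every Prol library and 3, 0 and 0 counts in the Sen(IR) libraries. With UK5099, CBX7 (1.09) and EZH1 (0.78), the paralog of EZH2, were called higher and EZH2 (−0.63) lower. Trithorax-type genes had 0 higher and 5 lower of 16 in Sen(IR), led by DOT1L (−1.66), PSIP1 (−1.34) and WDR5 (−1.19), against 24.8% higher and 22.4% lower of all genes. With UK5099 0 of the 16 were called, against 20.8% of all genes.

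Retinoic acid genes had 4 called higher and 2 lower of 11 tested in Sen(IR), and 0 higher and 5 lower with UK5099. The background shares were 24.8% higher and 22.4% lower in Sen(IR) and 8.76% higher and 12.1% lower with UK5099. ALDH1A3, 1 of the 5, lost the call without Sen(IR) library 3 or UK5099 library 1. ALDH1A1, which makes retinoic acid, rose from 0.250 ± 0.232 to 5.28 ± 1.40 CPM in Sen(IR) (log2 fold change 4.40), and was at 4.47 ± 0.136 CPM with UK5099. DHRS3, a retinaldehyde reductase, rose from 5.24 ± 1.28 to 15.6 ± 0.486 CPM (1.56) and was at 1.58 ± 0.272 CPM with UK5099 (−3.29 against Sen(IR)). CRABP2, a retinoic acid carrier, was at 1.37 ± 0.376, 2.52 ± 0.461 and 0.511 ± 0.273 CPM in Prol, Sen(IR) and Sen(IR)+UK5099 (0.89 and −2.27), and CYP26B1, which breaks retinoic acid down, fell by 2.06 on the log2 scale with UK5099. Between the inhibitors 0 of the 11 were called higher and 6 lower with UK5099, against 8.2% and 11.7% of all genes. ALDH1A1, 1 of the 6, had a log2 fold change of −0.52 (edgeR adjusted p 0.0332) and lost the call in 5 of 6 fits that left out a library, all but the one without CTPI2 library 3.

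Other lung mesenchyme transcription factors had 0 called higher and 6 lower of 12 in Sen(IR), against 24.8% and 22.4% of all genes. GLI1 (−2.27) and GLI2 (−1.03), effectors of hedgehog signalling, were among the 6. With UK5099 GLI2 was called lower, from 13.2 ± 0.669 to 8.43 ± 1.33 CPM (−0.65), and GLI1 had at most 3 counts in each library, at least 2.68-fold lower than in Sen(IR) but not called (edgeR adjusted p 0.0552). Between the inhibitors GLI1 and GLI2 were called lower with UK5099, and GLI1 lost the call in 3 of 6 fits that left out a library. With CTPI2 against Sen(IR), 0 genes of any of these 6 lists were called by edgeR, against 0.166% of all genes tested.

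**Figure D4:**
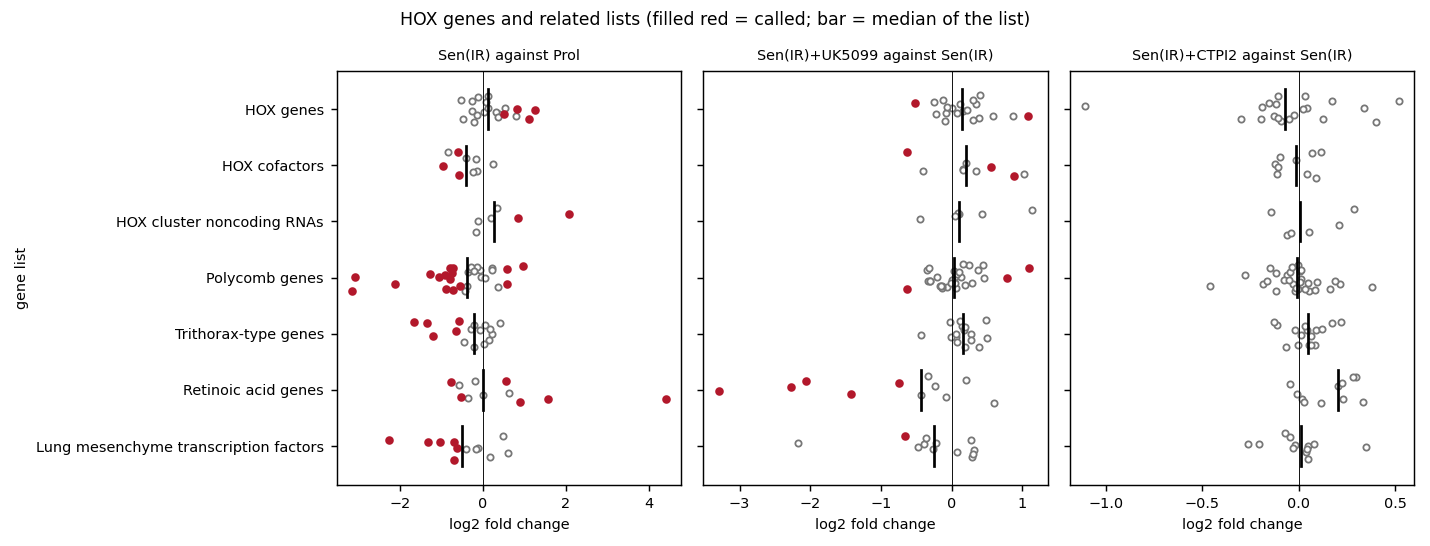
Log2 fold changes (x axis, scaled separately in each panel) of the HOX genes and of 6 related lists in 3 comparisons, where each point is a gene, filled red points were called and the bar is the median of the list. The point of HOXB-AS2 in the first panel is a fitted value of a gene at the floor in Prol, and Polycomb genes have 13 called lower there.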

How the data were processed

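The 12 libraries (2 × 150 bases) were sequenced from MRC5 cells. The authors' steps were Trimmomatic 0.36 for trimming, STAR 2.5.2b for alignment to GRCh38 and featureCounts (Subread 1.5.2) for counts of unique reads in exons. The deposited table holds these raw counts for 57500 genes, and 0 of its columns belonged to other samples. Trimming, alignment and counting could therefore not be varied.

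The 4 groups were fitted together in edgeR 4.0.16 under R 4.3.3, after filterByExpr and TMM, by glmQLFit and glmQLFTest with no term for replicate number and Benjamini-Hochberg adjustment over 16251 genes. Exon lengths, positions and shared bases came from GENCODE annotation on GRCh38, matched by Ensembl identifier for all 39 HOX genes. Start windows came from RefSeq. A gene is given per library if called in any comparison or among the 2 highest per kilobase of its cluster. Up to 3 called genes per list and comparison are named, and any called cluster noncoding RNA. HOXB2, HOXB3, HOXB4 and HOXA9 were added after their values were seen. A few genes that the rule named are counted but not reported here one by one. Members and lists were chosen with earlier results of these data known.

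Alternatives were DESeq2 1.42.0, RLE scaling, no filter, a replicate block, a fit of only the 2 groups compared, no limit on the fold change, unadjusted p, unshared exon length and leaving out each library in turn. A fit without a library assumes that the remaining libraries vary like the other groups. On counts simulated for Sen(IR) against Prol with 15777 genes, edgeR recovered 66 of 67 genes changed by 0.75 on the log2 scale, 67 of 67 changed by 1 and 66 of 66 changed by 2, with 2 false calls in all, and DESeq2 recovered 65, 65 and 66 with 0 false calls. The simulation gave every gene the same dispersion and changed few genes, none of them among the lowest levels. Recovery of HOX genes at low counts was therefore not tested.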

Additional observations from a re-analysis of the deposited data

How the results depend on the processing

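The number of HOX genes called was 4 in Sen(IR) against Prol, 2 with UK5099, 0 with CTPI2 and 1 between the inhibitors under DESeq2, RLE scaling, no filter on low counts and unadjusted p. No pairing of samples by replicate number was seen, since deviations of same-numbered libraries had correlations of −0.0511 to 0.0423. These correlations run over all genes tested and could miss a weak shared effect. A fit with the replicate block gave 4, 2, 0 and 1 and changed no call of a named gene. Without a limit on the fold change the counts were 8, 6, 0 and 5, since genes with small fold changes then count. Leaving out 1 library gave 3 to 6 in Sen(IR) against Prol, 1 to 2 with UK5099, 0 to 0 with CTPI2 and 1 to 3 between the inhibitors. HOXB8 and HOXA7 stayed called throughout.

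Directions were checked for called genes of the lists and for HOX genes called in any comparison. HOX genes with an edgeR adjusted p under 0.05 in the comparison at hand were also checked. Among these, directions reversed only in HOX genes not called in that comparison and only when a library was left out. The remaining HOX genes, such as HOXA3 with UK5099 (log2 fold change 0.0025), were not checked. HOXC4 ranged from −0.27 to 0.32 on the log2 scale with UK5099 (0.32 and 0.06 where it reversed), from −0.43 to 0.19 with CTPI2 and from −0.064 to 0.36 between the inhibitors. With CTPI2, HOXB8 ranged from −0.11 to 0.15 (−0.03, −0.05 and −0.11 where it reversed) and HOXC8 from −0.15 to 0.078 (0.040, 0.055 and 0.078). HOXB5 between the inhibitors ranged from −0.10 to 0.029 (0.0072 and 0.029). The cause was not tested. RLE scaling reversed none of the 117 fold changes checked. Counting per unshared exon base moved the level of 12 of 20 HOX genes by more than the spread between replicates. HOXA6, HOXA9, HOXA10, HOXC4 and HOXC9, with at most 30 counts in any library, had the widest intervals.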
